A study of Drosophila melanogaster with 2 samples.

Results

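Intronic CG2875 peaks that lie at a middle distance from promoters are described here, namely those with a summit 1001 to 5000 bp from the nearest transcription start site (TSS) of any gene, inside a gene body and in no exon. There were 885 such peaks among 4278 in all (20.7%, exact binomial 95% interval 19.5 to 21.9%). They were chosen by position alone, from the Ensembl annotation of the dm6 assembly with transposable elements left out. A summit is the base at which the peak caller placed the maximum of a peak. The peaks came from chromatin immunoprecipitation sequencing (ChIP-seq) of Drosophila melanogaster embryos that carried CG2875 with green fluorescent protein at its C-terminus, pulled down with an antibody against the tag. Both libraries belonged to 1 group, 2 biological replicates of whole embryos of both sexes aged 0 to 14 h, with DNA sonicated to 200 to 800 bp. The 4278 peaks (IDR peaks) are those that the authors kept by the irreproducible discovery rate, which measures how alike replicates rank their peaks. Whole embryos mix all cell types and many stages, so each value is an average over them, and the line expressed the fusion from a transgene. A control alignment was shared by both replicates, and no immunoprecipitation from untagged embryos was among the analysed libraries, so enrichment that would also arise without the fusion protein cannot be told apart from binding. Read depth is unknown, because peak lists carry no read totals. All intervals cover counting error over peaks, genes or windows only, since the same pair of libraries lies behind every peak.

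Introns are removed from the transcript, yet in Drosophila they hold many enhancers, stretches of DNA where transcription factors bind and act on a promoter at a distance. Long introns, and the first intron of a gene above all, are rich in such sequence, and genes that direct development tend to carry several enhancers each. A ChIP-seq peak in an intron shows where the tagged protein or something that carries it was enriched, and does not by itself show which gene is regulated.

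The sequences below are the 201 bp around the summits of the 5 strongest peaks on X, 2L, 3L and 3R, the arms from which sequence is shown, and they include the strongest 4 of all. They were read from the reference genome (dm6, RefSeq Release 6). Capitals mark copies of the word CACTG on either strand. Among 5-letter words its share at the summits exceeded that in all intronic sequence of the class by the largest factor, as described further on.
CG11050 chr2L:6612626-6612826 (plus strand): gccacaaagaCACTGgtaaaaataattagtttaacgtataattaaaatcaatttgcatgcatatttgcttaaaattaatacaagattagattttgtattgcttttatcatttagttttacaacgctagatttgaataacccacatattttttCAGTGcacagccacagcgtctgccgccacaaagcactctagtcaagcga
ush chr2L:480956-481156 (plus strand): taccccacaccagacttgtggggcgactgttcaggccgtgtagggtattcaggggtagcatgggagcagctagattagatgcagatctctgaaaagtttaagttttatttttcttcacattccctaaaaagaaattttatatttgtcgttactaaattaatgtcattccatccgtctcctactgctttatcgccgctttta
cno chr3R:5215425-5215625 (plus strand): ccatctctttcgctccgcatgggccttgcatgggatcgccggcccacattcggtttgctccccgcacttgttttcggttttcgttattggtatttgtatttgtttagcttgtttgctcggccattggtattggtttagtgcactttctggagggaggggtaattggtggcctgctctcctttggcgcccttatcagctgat
Trl chr3L:14759422-14759622 (plus strand): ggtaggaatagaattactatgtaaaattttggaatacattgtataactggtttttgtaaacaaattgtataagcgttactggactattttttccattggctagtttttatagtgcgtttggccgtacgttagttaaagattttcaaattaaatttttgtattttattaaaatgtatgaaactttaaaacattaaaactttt
Tlk chrX:3742132-3742332 (plus strand): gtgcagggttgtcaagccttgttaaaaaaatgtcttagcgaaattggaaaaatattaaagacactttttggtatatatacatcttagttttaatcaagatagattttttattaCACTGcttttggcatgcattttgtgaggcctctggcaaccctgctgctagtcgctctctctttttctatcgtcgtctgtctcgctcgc
Copies of the word stood in 2 of these 5 windows, those of CG11050 and Tlk, and the other 3 held none. The summit is the middle base of each window.

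Longer words that extend CACTG are shown next in the 4 strongest peaks on the same arms that hold the 10-letter word CACTGAGAGA, which was chosen after its values were seen. The flanking 25 bp on each side are included so that the surroundings can be compared. Capitals mark the word, which reads TCTCTCAGTG on the other strand.
ImpL2 chr3L:4228281-4228340 (plus strand): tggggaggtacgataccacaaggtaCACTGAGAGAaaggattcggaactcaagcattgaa
aop chr2L:2163701-2163760 (plus strand): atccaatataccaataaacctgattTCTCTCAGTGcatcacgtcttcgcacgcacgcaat
Zdhhc8 chrX:9352366-9352425 (plus strand): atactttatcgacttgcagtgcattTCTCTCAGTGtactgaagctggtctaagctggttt
mew chrX:13232652-13232711 (plus strand): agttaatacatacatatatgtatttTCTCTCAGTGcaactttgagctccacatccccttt
The 4 sequences lie in introns of different genes. ImpL2 encodes a secreted protein that binds insulin-like peptides, aop (Yan) an ETS-domain repressor, Zdhhc8 a palmitoyltransferase family member and mew an integrin alpha subunit.

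The third set shows the match to the forkhead factors' motif TGTTTAC, whose reverse complement is GTAAACA and which of the motifs searched had the largest ratio at these peaks. The 3 sequences are the strongest on the same arms with a match centred within 50 bp of the summit, with 25 bp on each side and the match in capitals.
Trl chr3L:14759452-14759508 (plus strand): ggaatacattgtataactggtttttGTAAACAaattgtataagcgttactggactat
Oatp30B chr2L:9525867-9525923 (plus strand): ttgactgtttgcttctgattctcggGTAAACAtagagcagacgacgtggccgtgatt
Rbfox1 chr3L:10519090-10519146 (plus strand): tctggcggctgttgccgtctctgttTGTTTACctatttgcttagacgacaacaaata
Trl encodes GAGA factor, Oatp30B an organic anion transporter and Rbfox1 an RNA-binding regulator of splicing.

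Intronic peaks at this distance had a median signal slightly below that of promoter peaks. The signal value of a peak expresses enrichment on the peak caller's scale and was compared only within 1 list. Between the replicate lists, whose levels differ, peaks were compared by rank and correlation. In the pooled list, called on both replicates together, it ran from 119.5 to 2017 with a median of 187 and quartiles at 145 and 268. The 1777 peaks with a summit within 500 bp of a TSS (promoter peaks) had a median of 195.5, so that the ratio of the medians was 0.955 (0.922 to 1.00, from the 95% interval of the intronic median with the promoter median taken as fixed). The ratio was 0.925 in the replicate 1 list and 0.925 in the replicate 2 list. Deep intronic peaks, over 5 kb from a TSS, had a median of 179 and intergenic peaks over 1 kb away a median of 176. The IDR list holds the strongest peaks of the pooled list, so these classes share a floor (119.5 to 119.8). Medians above a shared floor can lie closer together than the classes as a whole. The upper quartile was 268 for the intronic peaks and 314 for the promoter peaks. Among the 100 strongest of all IDR peaks were 11 of the intronic ones, and among the 500 strongest were 84 (9.49% of the 885). The share among the 500 strongest was 11.7% over all IDR peaks, 15.6% for promoter, 5.65% for deep intronic and 7.31% for intergenic peaks.

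Signal did not follow position within the class. Spearman's rho between pooled signal and distance from the TSS was -0.03 over 885 peaks, and it was -0.06 in replicate 1 and -0.03 in replicate 2. The median signal was 191 at 1001 to 2000 bp (n = 382) and 184.5 at 4001 to 5000 bp (n = 133). Correlations with intron length (0.03), with distance from the nearest exon (0.03) and with GC content (-0.08) were as weak. These are descriptions across peaks that share the same libraries.

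Nearly all of these sites had a peak in both replicate lists, as did IDR peaks at large. A replicate 1 peak was present in the relaxed list for 884 of the 885 and a replicate 2 peak for 883, with median signals of 87.6 and 107. For all 4278 IDR peaks the counts were 4268 and 4266. Peaks kept by the irreproducible discovery rate were likely to have a peak in each relaxed list, so these counts are not separate support. Every IDR peak is among the 4278 highest signals of the pooled list, so the equally long top list of each replicate gives a stricter view. Of the 885, 668 (75.5%) overlapped a peak of the replicate 1 top list by 50% or more of both intervals, and 685 (77.4%) did so for replicate 2. Both top lists held 538 (60.8%) and neither held 70 (7.91%). Over all IDR peaks the shares were close to these, 73.2% for replicate 1, 77.2% for replicate 2, 59.9% for both and 9.49% for neither. Promoter peaks gave 71.5% for replicate 1 and 79.1% for replicate 2. Over the 882 peaks with both replicate values Spearman's rho was 0.70 and Pearson's r of the log2 values 0.78. These correlations describe peaks that were selected for high pooled signal and share the control alignment.

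**Figure D1:**
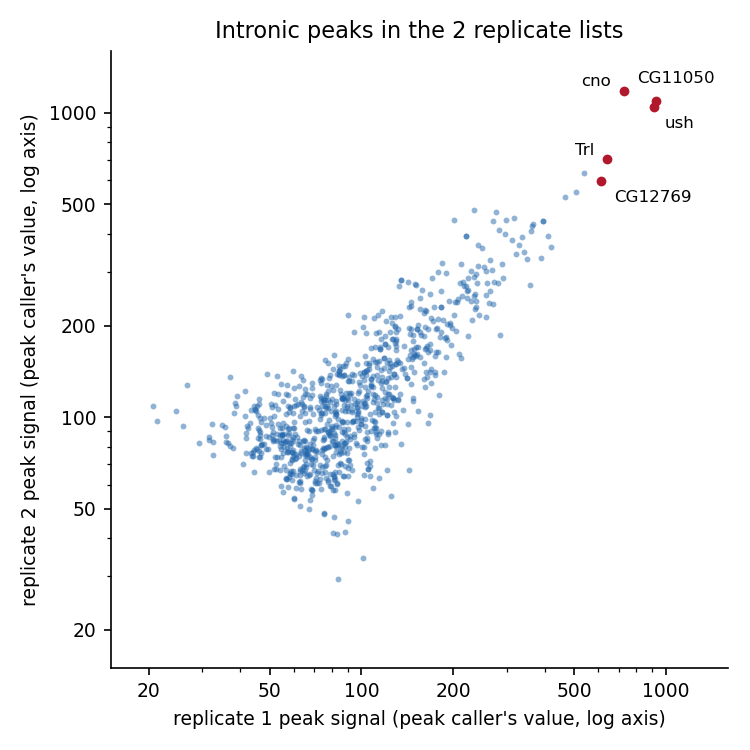
Signal of each intronic peak in the replicate 1 list (horizontal, log axis) and the replicate 2 list (vertical, log axis), 1 point for each of the 882 peaks with both values. The 5 strongest by pooled signal are in red with their host genes, and all 5 lie apart from the main cloud in both replicates.

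In the relaxed pooled list, 14.3% of all 30000 peaks reached the IDR list. Of the 6168 relaxed peaks of the intronic class the share was 14.35% (exact interval 13.5 to 15.25%), which is at the level of the whole list. It was 20.9% for promoter peaks, 10.9% for deep intronic, 9.97% for intergenic and 3.95% for exonic peaks over 1 kb from a TSS.

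Per length of sequence, the intronic peaks were denser than IDR peaks at large. The sequence that meets the position rule (eligible sequence) added up to 20.14 Mb of the 133.9 Mb of the 6 chromosome arms. It held 43.9 peaks per Mb (95% Poisson interval 41.1 to 46.9), against 31.95 per Mb for all IDR peaks over the arms, a ratio of 1.375 (1.29 to 1.47 with the latter taken as fixed). Sequence within 500 bp of a TSS had 97.9 per Mb. Intergenic sequence 1001 to 5000 bp from a TSS had 24.01 per Mb (21.5 to 26.8) and exonic sequence at the same distances 3.875 (2.95 to 4.998). Deep intronic sequence had 19.4 per Mb (17.8 to 21.1). At equal distance from promoters, introns thus held a density whose interval lay above that of intergenic sequence and far above that of exons.

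First introns carried most of this density. Of the 885 peaks 658 (74.35%) were in an intron that is the first of at least 1 transcript, a class that made up 54.8% of the eligible bases. The density was 59.6 per Mb in first introns and 24.9 in later ones, a ratio of 2.39 (2.05 to 2.79). First and later introns were not matched for length or for distance from exons, with which density also differed, as given below. The part of these in the ratio was not tested. The difference was present near the TSS and farther from it, for the densities were 73.0 and 24.8 per Mb at 1001 to 2000 bp and 51.0 and 25.02 at 2001 to 5000 bp. In first introns the density went from 79.4 per Mb at 1001 to 1500 bp to 40.8 at 4501 to 5000 bp. In later introns it showed no such slope, with values between 17.6 and 35.2, close to the 15.2 to 29.0 per Mb of intergenic sequence over the same distances.

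**Figure D2:**
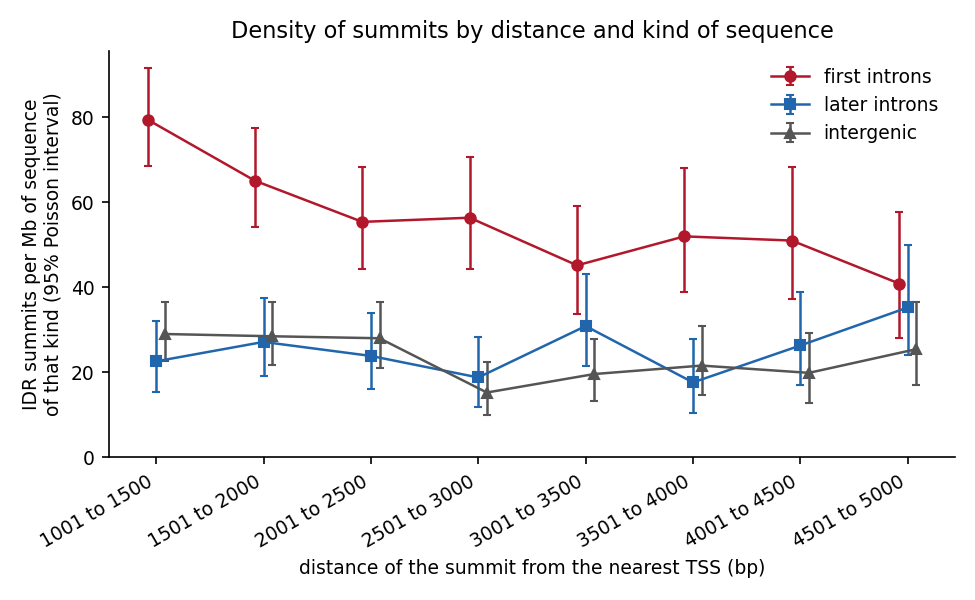
IDR summits per Mb of sequence (vertical) in bins of distance from the nearest TSS (horizontal) for first introns, later introns and intergenic sequence, with 95% Poisson intervals. Up to 3000 bp the interval of first introns lies above those of the other kinds, and all intervals overlap in the last bin.

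The peaks were sparse near exon edges and in introns of at most 2000 bp. Within 100 bp of an exon there were 13 peaks (5.69 per Mb, 3.03 to 9.73), from there to 250 bp 27.1 per Mb and at 501 to 1000 bp 57.4 per Mb (49.3 to 66.4). Introns of at most 2000 bp had 20.2 per Mb, those of 2001 to 5000 bp 52.1, of 5001 to 10000 bp 57.2 and of 10001 to 20000 bp 53.5, whereas longer introns had 36.5 (31.0 to 42.65). Annotated transposable elements made up 0.979 Mb of the eligible sequence and held 0 summits, which allows up to 3.77 per Mb. The placing of repeated reads was not given in the sources used here, and its part in this count was not tested. On the major arms the density was between 40.3 (2L) and 47.7 per Mb (2R), and chromosome 4 had 1 peak (3.74 per Mb, 0.0948 to 20.9).

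The peaks fell on either side of the nearest TSS in proportion to the sequence there. Downstream of it, in the direction of transcription, were 579 of 885 (65.4%), and 66.1% of the eligible bases lie downstream. The nearest TSS belonged to the host gene for 679 peaks (76.7%), to another coding gene for 116 and to another non-coding gene for 90. Another IDR summit lay within 1000 bp of 153 peaks (17.3%) and within 5000 bp of 588 (66.4%). An exon was touched by 41 of the peak intervals (4.63%), although no summit was in one.

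The peaks nearest to the edges of the rule had the following values. Just inside 1000 bp were a peak in ck, a myosin gene, at 1002 bp (pooled signal 259.5, replicate signals 132 and 115.0), another in arr at 1002 bp (186) and 1 in par-1, a polarity kinase gene, at 1006 bp (150.3, 86.95 and 64.2). Just outside were peaks in wake at 1000 bp (233, 115 and 123), in Nedd4, a ubiquitin ligase gene, at 994 bp (147, 74.75 and 79.0) and in speck at 992 bp (124). At the far edge NetB held a peak at 4997 bp (134, 74.2 and 65.65), with another in tara at 4992 bp (146.0) and another in E2f1 at 4988 bp (124.5). Outside it were peaks in sano at 5001 bp (132), in cno at 5005 bp (261, with 119 and 139 in the replicates) and in cv-c at 5012 bp (196).

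The strongest intronic peak lay in CG11050 on 2L, at 6612482 to 6612926, 1039 bp from the gene's TSS. Its signal was 2017 in the pooled list, 926 in replicate 1 and 1091 in replicate 2, and it ranked 3 among all IDR peaks. Its place was unlike that of most others, in an intron of 140 bp with the summit 55 bp from an exon.

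The next lay in the first intron of ush (u-shaped), which encodes a FOG-family cofactor of GATA factors, with signals of 1988, 916 and 1047. Its nearest TSS was not that of ush but that of cbt, a zinc finger factor gene, 1368 bp away. The peak in the first intron of cno (canoe), which encodes an afadin homologue that links adherens junctions to actin, had 1897, 727 and 1184. It ranked 11 in the replicate 1 list and 2 in the replicate 2 list.

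Trl followed with 1342, 640 and 703. CG12769 had 1222, 615 and 597.5. Tlk, the gene of a Tousled-like kinase with a role in chromatin assembly, had 1175, 538.5 and 636. All 6 of these ranked 35 or better in both replicate lists, so the strongest sites did not rest on 1 library.

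The other 9 of the 15 strongest peaks had pooled signals from 761 to 1059. CG32772 had 1059 (506 and 548 in replicates 1 and 2) and Raf, the kinase that receives the signal from Ras, had 1008 (465.5 and 530.2). In CG3726 the values were 838, 394 and 443, and in NFAT, a gene of the NFAT family of transcription factors, 834, 396 and 440.4. The long non-coding RNA gene lncRNA:CR44810 had 813 (411 and 394). Its rank was 72 in the replicate 1 list and 132 in the replicate 2 list, a wider gap than for the 4 before it. ImpL2 had 795 (367 and 431) and trx (trithorax), a histone methyltransferase gene that keeps homeotic genes active, had 789.5 (363 and 423). CG9837 had 786.5 (420.1 and 363) and Tre1, a receptor gene needed for germ cell migration, 761 (317 and 452.5). The last 2 ranked unlike in the replicates, at 68 and 160 for CG9837 and at 172 and 84 for Tre1.

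Most host genes carried 1 peak, and a minority carried several. The 885 peaks fell in 602 host genes and 692 introns. Of the hosts, 414 had 1 peak, 126 had 2, 42 had 3 and 20 had 4 or more, and 348 peaks (39.3%) shared their intron with another. The host was protein-coding for 868.

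The largest number, 9, was in shn (schnurri), which encodes a zinc finger cofactor of Smad proteins in Dpp signalling, on 2R between 11159086 and 11217394. Their pooled signals were 444.6, 398, 337, 245, 199.6, 186, 136, 129 and 124, in order of strength. In replicate 1 the same peaks had 236, 156, 168.5, 103, 103, 62.1, 46.2, 65.8 and 45.9, and in replicate 2 226, 226, 167, 142, 98.2, 126, 90.4, 75.5 and 74.0. None was among the 15 strongest, so shn stood out by number and not by height.

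CG1677 on X held 7 peaks, with pooled signals between 196 and 505. The leading ones had 271 and 236 in replicates 1 and 2 and 244 and 217, and the gene is long (125 kb, of which 50.7 kb were eligible). In ush the 5 peaks had 1988, 747.5, 395, 233 and 125, a range of over an order of magnitude within 1 gene. Dys (dystrophin) held 5 between 136 and 586 in 40.8 kb of eligible sequence. CHES-1-like, a forkhead family gene, held 5 between 121 and 476 in 11.0 kb. The genes pnt and E2f1 held 5 as well, with lower summed signals. Each of the first 5 hosts also had a promoter peak.

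Genes with a promoter peak held intronic peaks more often. Among the 6851 protein-coding genes with any eligible sequence, 618 held an intronic peak, 9.02%. The share was 238 of 1247 (19.1%, exact interval 16.9 to 21.4%) where the gene had a summit within 500 bp of a TSS and 380 of 5604 (6.78%, 6.14 to 7.47%) where it had none. Within genes of like eligible length the order was the same, with 28.7% against 12.3% at 2001 to 5000 bp, 39.55% against 21.5% at 5001 to 10000 bp and 64.6% against 28.0% above 10 kb. At up to 2000 bp the shares were 1.81% and 1.07%, with intervals that overlap. Peaks per Mb were 75.8 with a promoter peak and 33.2 without. The part of chromatin state in this was not tested.

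The hosts were compared by function through 14 gene lists, written from general knowledge with earlier results of these data known. Some lists share genes and their peaks, so they are not separate observations. For example, sbb is in both the TGF-beta and the chromatin list, and ken in both the JAK-STAT and the chromatin list. For each list the number of peaks per Mb of eligible sequence was set beside the 44.2 per Mb of all protein-coding genes (41.4 to 47.1). This takes the amount of eligible sequence into account. The Poisson interval of 6 lists lay above the 44.2 and of 2 lists below it, without adjustment for their number. Such intervals treat peaks as independent, whereas 348 of the 885 peaks (39.3%) shared their intron with another. They may therefore be too narrow for comparing lists of genes. Density also differed with intron length and with a promoter peak, and neither was taken into account. A promoter peak was present in 1247 of all 6851 genes. Among junction, polarity and cytoskeleton genes the count was 36 of 77. It was 5 of 30 in the TGF-beta list and 2 of 57 in the ion channel and synaptic list. The part of promoter peaks in the list densities was not tested.

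The TGF-beta list had the highest density of the 14. In the TGF-beta pathway 9 of 30 genes with eligible sequence held 23 peaks, 152.5 per Mb (96.65 to 229), 3.45 times all coding genes. Without shn the factor was 2.63. The strongest peak of the list was the one in shn given above (444.6), and the next in sbb (scribbler), a corepressor gene, had 413 with 201 and 217 in the replicates. The receptor genes of the pathway held peaks as well, 4 in tkv (thickveins), the type I receptor for Dpp, and 1 in put (punt), the type II receptor. The strongest tkv peak had a pooled signal of 304, with 90.1 (rank 2012) in the replicate 1 list and 217 (rank 560) in the replicate 2 list. The put peak had 222, with 104 (rank 1619) and 116 (rank 1816).

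In the list of chromatin and BTB factors 18 of 71 genes held 35 peaks (121 per Mb, 84.3 to 168), led by Trl and CG3726, whose values are given above. The JAK-STAT and Hippo pathways had 10 of 33 genes and 19 peaks (112 per Mb, 67.3 to 174.5). Their leading hosts were ken, which encodes a BTB repressor of STAT targets (477 pooled, 238 and 240.5 in the replicates), and msn (misshapen), a kinase gene (367, 181 and 184).

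Junction, polarity and cytoskeleton genes held 40 peaks in 25 of 77 genes (80.03 per Mb, 57.2 to 109), led by cno and by Dys (586, 242 and 367). The Wnt and Hedgehog pathways held 26 in 16 of 45 genes (77.6 per Mb, 50.7 to 114). There Notum, which encodes a secreted Wnt deacylase, led with 394 (145 and 238.5), ahead of ptc (patched), the Hedgehog receptor gene (351, 133.5 and 215). Receptor tyrosine kinase pathways held 28 in 15 of 57 genes (73.9 per Mb, 49.1 to 107), led by Raf and by aos (argos), which encodes a secreted inhibitor of the EGF receptor (692, 342 and 349).

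For 6 lists the interval held the value of all coding genes. Nuclear receptors and ecdysone response genes had 66.6 per Mb (10 of 24 genes), with ImpL2 and the nuclear receptor gene Hr4 (606.5, 289 and 320) in front. Both of these hosts respond to or act in hormone signalling. Muscle genes had 57.1 (8 of 37), with the myoblast fusion genes kirre (553, 273.5 and 279) and mbc (522, 234 and 289). The Notch pathway had 43.8 (5 of 25), with the coactivator gene mam (477, 234 and 250.1) and neur, a ubiquitin ligase gene (304, 162.5 and 140.3). The interval of the Notch list is wide, with 6 peaks behind it. Patterning and homeobox factors had 41.25 (17 of 104), with ush and sim (single-minded), the regulator of the midline (746, 276 and 471). RNA-binding regulators had 39.6 (13 of 50), with Rbfox1 (609.6, 249 and 359) and shep (443, 206 and 239). Metabolic and housekeeping genes had 26.2 (2 of 33, interval 3.17 to 94.5), 0.592 times all coding genes, namely kdn, the citrate synthase gene (280, 139 and 138.5), and Pepck2 (202, 89.4 and 109). With so few peaks the factor was 0.9205 without replicate 1, 1.199 in the stronger 50% of the IDR peaks and 0.308 without Pepck2.

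Neuronal genes with long introns held few peaks for their length. Axon guidance and neuronal adhesion genes had the longest median eligible sequence of the lists (11.5 kb a gene) and 14 peaks in 9 of 64 genes, 17.0 per Mb (9.295 to 28.5) or 0.385 times all coding genes. NetB, a guidance ligand gene, led with 534 (212.5 and 319), followed by fra (frazzled), which encodes its receptor (510, 215.5 and 277). Ion channel and synaptic genes had 3 peaks in 57 genes, 6.66 per Mb (1.37 to 19.5). These lay in KCNQ, a potassium channel gene (243, 136.5 and 105), in Nmdar1, a glutamate receptor gene (166, 72.5 and 105), and in mAChR-A, a muscarinic receptor gene (152, 66.4 and 76.9). Counted by genes instead of length, the 14.1% of axon guidance genes with a peak is above the 9.02% of all coding genes, so the direction of this list depends on taking length into account. The cell types in which each gene is expressed cannot be told apart in whole embryos.

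**Figure D3:**
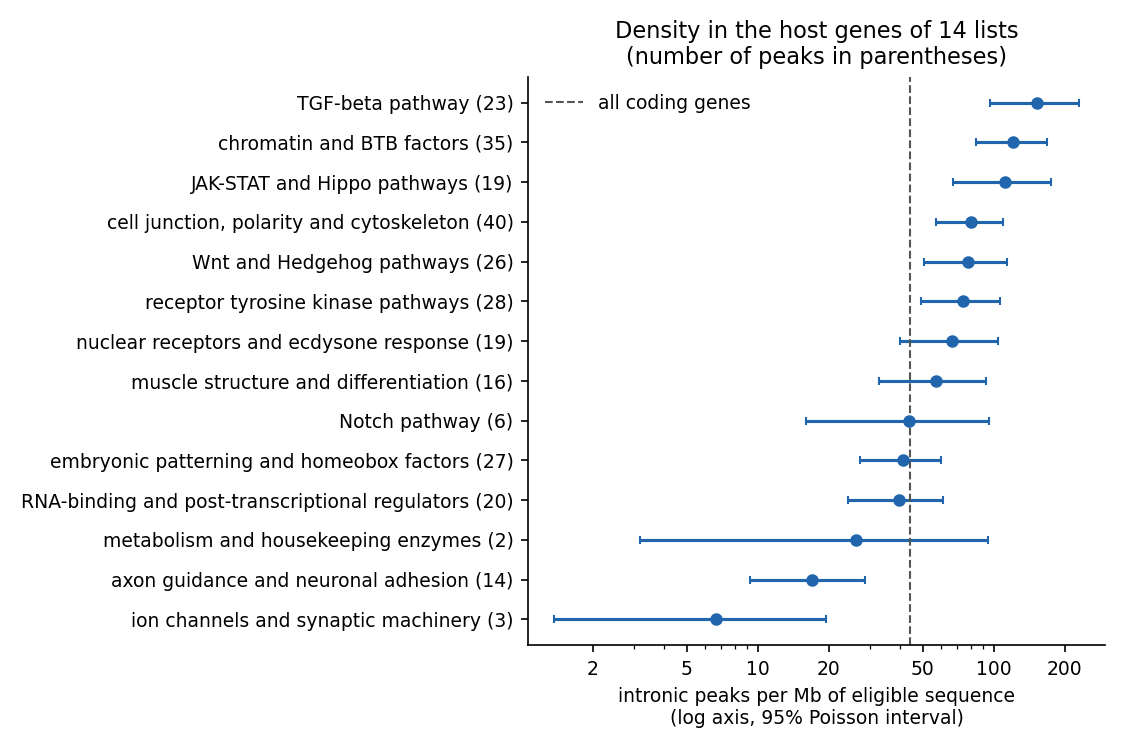
Intronic peaks per Mb of eligible sequence (horizontal, log axis) in the genes of each list (vertical, number of peaks in parentheses), with 95% Poisson intervals and the value of all coding genes as a dashed line. The TGF-beta list is highest at 152.5 per Mb and the ion channel list lowest at 6.66.

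Summits sat in a narrow trough of GC content between richer shoulders. The mean GC content of the 201-bp windows was 36.5% ± 6.71 (SD over 885 windows), against 39.9% in the 88771 non-overlapping windows of that length that tile the eligible sequence and 40.9% in the windows 1000 bp to either side. By distance, GC content was 34.5% at the summit and 43.5% and 43.7% at 250 bp to the left and right of it on the plus strand, and it was 40.1% and 40.5% at 675 bp. Promoter peaks had 35.9% at the summit and stayed between 43.2% and 44.6% beyond 300 bp, without a shoulder above the farther values. Deep intronic peaks showed the same shape with 33.1% at the summit and 44.7% at 250 bp to the left.

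Around this trough the word CACTG, read on either strand, was frequent. Of all 512 words of 5 letters, counted on both strands, it had the largest ratio of members to tiles, and it was chosen from these values. At least 1 copy was present in 437 of 885 windows (49.4%, 46.0 to 52.7%), against 27.5% of the tiles and 29.15% of the side windows. The share was 48.55% in the peaks of the class from the top list of replicate 1 and 48.0% in those of replicate 2. Copies came in multiples too: 114 windows (12.9%) held 2 and 17 (1.92%) held 3 or more, against 4.13% and 0.696% of tiles.

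Copies were densest beside the summit, not on it. Per kb there were 2.64 copies within 24 bp of the summit, 3.89 at 50 to 74 bp and 3.91 at 75 to 99 bp, and 1.88 at 175 to 199 bp, against 1.68 in the tiles. The share of windows with a copy was 50.1% at deep intronic peaks, 52.7% at intergenic peaks and 42.1% at promoter peaks, so the word is not particular to introns at this distance. It was lower where signal was lower, from 57.0% of the 100 strongest intronic peaks to 40.9%, 32.4% and 32.4% in the stronger, middle and weaker of 3 equal groups of relaxed peaks of the class that missed the IDR list. The median signal was 193 with a copy and 183.5 without. Tiles restricted to the GC range of the middle 80% of the summits (28.4 to 45.3% GC) held a copy in 25.8%.

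**Figure D4:**
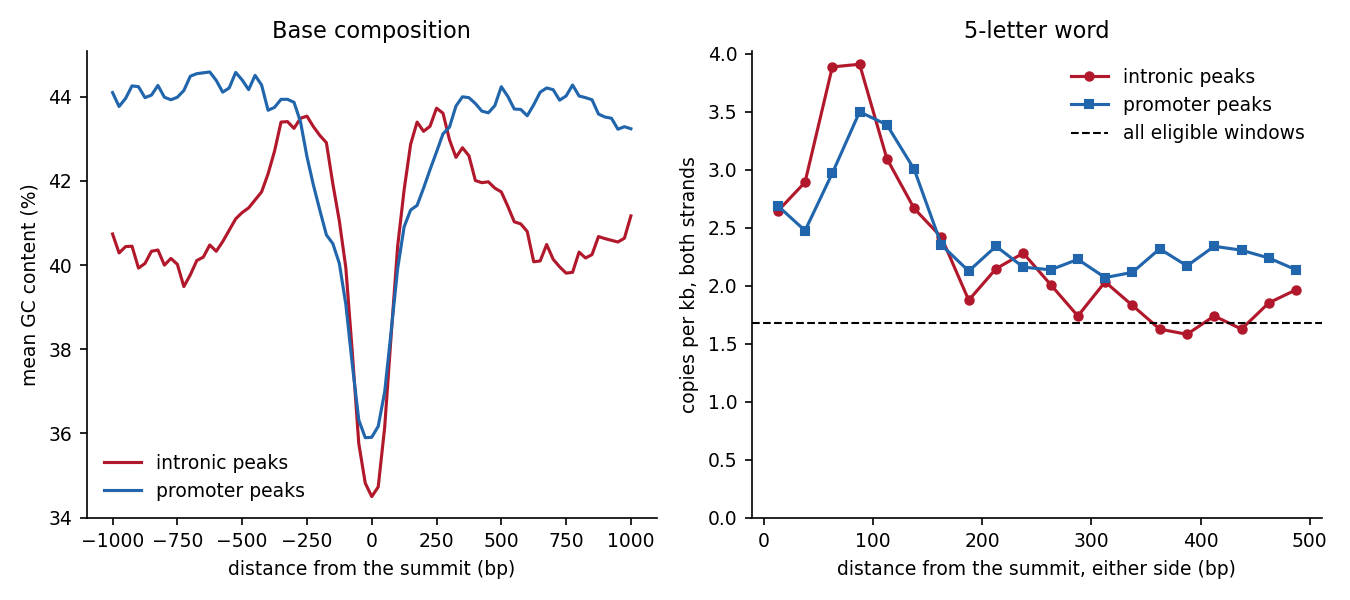
Left, mean GC content (vertical, %) by distance from the summit; right, copies of the 5-letter word per kb on both strands (vertical) by distance on either side, for intronic and promoter peaks, with the level of all eligible windows dashed. GC content of intronic peaks is lowest at the summit (34.5%), and the word is densest at 50 to 99 bp.

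Longer words around CACTG had larger ratios. Of the 12 words of 8 letters with the largest ratio to the tiles, among those in at least 20 windows, 10 contain CACTG or its complement. So do 8 of the leading 12 with 7 letters and 5 of the leading 12 with 6 letters. These words were ranked in the same windows from which CACTG was chosen, and many extend it. The counts are therefore not separate support for the word. CACTGTA was present in 7.57% of windows and 1.83% of tiles, TACACTG in 8.81% and 1.88%, and CCACTGT in 10.5% and 2.475%. All 3 were several times as frequent as in the tiles. CACTGAGA was present in 38 windows (4.29%, 3.06 to 5.85%), against 0.695% of tiles, 0.509% of side windows and 1.97% of promoter peaks, while deep intronic peaks had 6.56% and intergenic peaks 8.46%. With 2 letters more, CACTGAGAGA stood in 23 windows (2.60%, 1.65 to 3.87%) against 0.170% of tiles, a ratio of 15.3. Intergenic peaks held the 10-letter word in 4.42%, deep intronic peaks in 3.28% and promoter peaks in 0.844%. In the eligible sequence as a whole there were 688 copies of CACTGAGA, and 40 of them (5.81%, 4.19 to 7.83%) were within 100 bp of an intronic summit, where 0.860% of the bases lie. Most copies of the word therefore had no IDR peak of the class, and most peaks of the class had no copy.

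Ranked by the difference from the side windows instead, the leading words were rich in A and T. The first 5 were AATATTTA (10.3% of windows against 5.03% of side windows), AATATTTG (7.91% and 2.77%), ACAAATAT (7.68% and 2.655%), ATATTAAA (7.46% and 2.54%) and AAAATAAT (9.38% and 4.915%). These follow the low GC content at the summit, whose part in them was not tested.

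Of 40 known motifs searched on both strands, the forkhead motif TGTTTAC had the largest ratio. It matched 90 windows (10.2%, 8.26 to 12.35%) against 4.66% of tiles, a ratio of 2.18 (1.77 to 2.65). Within 50 bp of the summit, or of the middle of a tile, the shares were 7.345% and 2.37%. Matches thus lay near the summit more often than near the middle of tiles. In a separate count, with windows of 50 bp to either side of the summit, the ratio was 3.19. Deep intronic peaks had the motif in 11.5%, promoter peaks in 8.10% and intergenic peaks in 4.23% (2.67 to 6.34%). Relative to the windows to either side the ratio was 1.65. The median signal of peaks with a match was 196 and without 186.5 (90.2 and 87.5 in replicate 1, 113 and 105.5 in replicate 2).

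The next by ratio were Mef2 (by name, 2 windows only, ratio 1.605 with an interval from 0.194 to 5.78), GATA factors (AGATAA, 17.3% against 12.35%, ratio 1.40, 1.203 to 1.615), GAGA factor (GAGAGAG, 3.84% against 2.755%, ratio 1.39, 0.971 to 1.93) and the TATA box (TATAAA, 32.9% against 24.6%, ratio 1.34, 1.21 to 1.47). The Mef2 ratio was 0.829 without replicate 1 and 0 in the stronger 50% of the IDR peaks and within 50 bp of the summit. The GAGA ratio turned to 0.716 against the side windows. Only GATA and TATA among these 4 had an interval above 1, and against tiles restricted to the GC range of the summits their ratios were 1.252 and 1.202.

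The 3 smallest ratios were those of motif 1, CTCF and ttk. Motif 1 and CTCF (both by name) matched 0 of 885 windows, which allows a share of up to 0.416%, and tiles held them in 0.0315% and 0.0259%, so no difference from the tiles was detectable. Promoter peaks held motif 1 in 2.48%. The motif AGGACC of the repressor ttk (tramtrack) was present in 8 windows (0.904%) against 3.56% of tiles, a ratio of 0.254 (0.110 to 0.4985). The DNA replication-related element TATCGATA, a core promoter element of housekeeping genes, was present in 1 window (0.113%, up to 0.628%) against 0.442% of tiles and 4.28% of promoter peaks. Motif 7, likewise known from promoters, was in 1.58% of intronic and 6.70% of promoter windows. For motif 1, motif 7 and the replication-related element the intervals of intronic and promoter peaks do not overlap. Over all 40 motifs the interval of the ratio lay above 1 for 5 and below 1 for 5, without adjustment for their number, and a match says only that the letters are present.

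**Figure D5:**
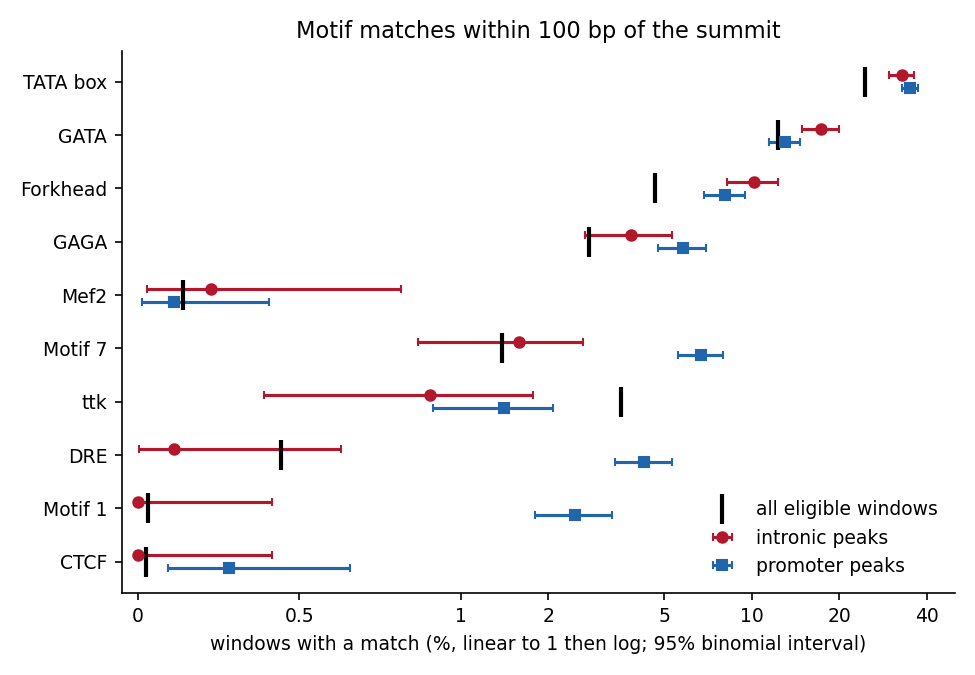
Share of 201-bp windows with a match (horizontal, %, linear to 1 and logarithmic above) for 10 motifs by name (vertical), in intronic peaks and promoter peaks with exact 95% intervals and in all eligible windows (black bars). Forkhead and GATA matches are more frequent at intronic peaks than in all eligible windows, and the replication-related element (DRE), motif 1 and motif 7 are more frequent at promoter peaks than at intronic peaks.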

How the data were processed

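The deposited lists hold peaks of 2 libraries on dm6. The authors deposited, per the file headers and records, a relaxed list of 30000 peaks for each replicate and for both together, called with a shared control alignment, and the IDR list derived from them. The names and versions of the aligner and caller were not given in the sources used here, nor was the cutoff of the IDR. The deposited signal is the caller's enrichment per peak, compared only inside its own list. The deposited -log10 q-value did not rank the IDR peaks and was not used. The dm3 lists were not used.

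Positions came from Ensembl release 115 (18164 genes, 23581 TSSs on 6 arms), sequences from RefSeq Release 6. Summits were classed by rule, and the scripts were tested on simulated data (16 of 16 summits and 50 of 50 planted words recovered). Densities divide peak counts by the length of all sequence that meets the same rule. Shares have exact binomial (Clopper-Pearson) intervals and densities Poisson intervals, at 95%. No test was run, because there is 1 group. Of 834 list symbols 792 matched directly, 30 by a unique synonym and 12 not. Members, lists and motifs were chosen with earlier results of these data known. The text names hosts of the 15 strongest peaks with a peak in both replicates, the 5 hosts with most peaks (ties by summed signal), the 2 hosts with the strongest peaks of each list, the 5 motifs with the largest and 3 with the smallest ratio, the 5 leading 8-letter words by difference, and, chosen after their values were seen, words around CACTG, Motif 7, the DNA replication-related element, tkv, put and mAChR-A. Depth in reads is unknown. Alternatives comprised each replicate list alone, the stronger 50% of peaks, other annotation, distance, summit, exon, overlap, window and background rules. Tools were Python 3.11.15 with scipy 1.17.1, numpy 2.4.6, matplotlib 3.10.9 and pandas 2.3.3.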

Additional observations from a re-analysis of the deposited data

How the results depend on the processing

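No paired analysis was possible because the series holds 1 group. Leaving out each replicate in turn gave 857 and 894 peaks of the class (769 and 759 of the 885 overlapped one), shares of 20.03 to 20.90% of the list, and a signal ratio to promoter peaks of 0.922 to 0.9855. In the stronger 50% of the IDR peaks there were 438 members, with a signal ratio of 0.890 and shares in the replicate top lists of 78.3% and 81.3%. Counting any overlap of 1 base raised those shares to 87.3% and 87.9%. Starting at 1500 bp instead of 1000 bp gave a share of 15.5% and a density ratio of 1.27 to all IDR peaks. Of 14 list densities, none moved beyond its counting interval in any alternative, which included, chosen after the data were seen, leaving out the gene with most peaks. Motif ratios moved beyond theirs in 10 of 38 cases within 50 bp of the summit, 6 in the stronger 50%, 4 against the side windows and 3 in tiles of like GC content, and in none without either replicate or at 150 bp. The ratio for CACTG was 1.74 to 1.91 and for CACTGAGA 5.84 to 6.60 over alternatives chosen after the data were seen. With unknown read depth, weak sites missed by the lists cannot be told apart from sites without enrichment.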
